A study of Saccharomyces cerevisiae with 8 samples.

Results

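The comparison set yeast strains that overexpressed SSZ1 against a strain that did not, all of them without IRE1. Its members were chosen by the sample titles: all 5 arrays of the overexpressing strains against the 3 Δire1 arrays, which are 8 of the 8 arrays of the series. OE-SSZ1Δire1 (n = 2) overexpressed SSZ1 in cells lacking IRE1. OE-SSZ1Δire1Δscj1 (n = 3) carried the same changes and also lacked SCJ1. Δire1 (n = 3) lacked IRE1 alone. The 2 overexpressing strains entered as 2 group means of equal weight, so the average difference is the mean of the 2 strains' differences from Δire1. Saccharomyces cerevisiae was grown in synthetic medium to early log phase (OD600 of 0.2 to 0.3) at 30 °C and 200 rpm. RNA of each sample was hybridised to 1 single-colour Agilent array of 1 slide.

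Ssz1, also called Pdr13, is a ribosome-bound member of the Hsp70 family that pairs with the J-protein Zuo1 and helps the Ssb chaperones fold new chains. It is also known as an activator of Pdr1, the zinc-cluster factor that, with Pdr3, drives the drug efflux pumps of the plasma membrane. Ire1 senses unfolded proteins in the endoplasmic reticulum (ER) and splices HAC1 mRNA, whose product turns on the unfolded protein response. Scj1 is a J-protein of the ER lumen that works with the Hsp70 Kar2. The title of the series concerns suppression of a temperature-sensitive growth defect by extra SSZ1.

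The design sets limits that hold for every result. No strain with IRE1 and no Δire1Δscj1 strain without extra SSZ1 was measured, so the OE-SSZ1Δire1Δscj1 difference joins overexpression to SCJ1 loss. Both strain differences use the same 3 Δire1 arrays, and whatever is particular to those arrays enters both. The labels do not say how SSZ1 was overexpressed, and each sample has a strain code of its own. The labels call samples independent but name no separate cultures, so p-values here reflect only the spread among these samples, and that spread may be technical.

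On each array 90.52% to 95.93% of non-control spots were well above background, and 0 were saturated. Replicates of OE-SSZ1Δire1 differed by a median of 0.0965 per gene on the log2 scale, and those of OE-SSZ1Δire1Δscj1 by 0.0956 to 0.141. In Δire1, replicates 1 and 3 differed by 0.056, whereas replicate 2 stood apart from them by 0.214 and 0.196. Both OE-SSZ1Δire1 arrays shared slide row 1 with Δire1 replicates 1 and 2, and the 3 OE-SSZ1Δire1Δscj1 arrays shared row 2 with Δire1 replicate 3. LEU2, an auxotrophic marker gene in laboratory strains, did not follow the groups. Its level was 2.43 and 2.42 in OE-SSZ1Δire1, 2.46, 2.12 and 2.22 in OE-SSZ1Δire1Δscj1, and 0.48, -0.021 and 2.73 in Δire1 (adjusted p = 0.122 for the average difference, limma). Here and below a level is a gene's log2 processed signal after subtracting that of the array's 75th percentile. Of 8 such marker genes, 3 were called lower in the average difference (URA3, LYS2 and MET17) and 1 higher (TRP1), against 11.9% and 17.2% of all genes. In OE-SSZ1Δire1 on its own 0 of the 8 were called. Within slide rows URA3 differed from Δire1 by -0.83 in OE-SSZ1Δire1 and by -1 in OE-SSZ1Δire1Δscj1. Without Δire1 replicate 1, 0 of the 8 were called in the average difference. All 7 a-cell mating genes were above background on all 8 arrays. Their summed signal in units of the 75th percentile was 6.23 to 8.2 in OE-SSZ1Δire1, 3.93 to 5.22 in OE-SSZ1Δire1Δscj1 and 7.49 to 7.83 in Δire1. The 5 alpha-cell genes summed to 0.32 to 0.389 in OE-SSZ1Δire1, 0.658 to 0.704 in OE-SSZ1Δire1Δscj1 and 0.327 to 0.341 in Δire1.

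The targeted genes were read first. SSZ1 stood at 5.61 and 6.07 in OE-SSZ1Δire1, at 5.42, 5.19 and 5.51 in OE-SSZ1Δire1Δscj1, and at 3.06, 2.79 and 3.05 in Δire1. All 5 overexpressing arrays lay above all 3 Δire1 arrays, which held for 15.2% of all tested genes. The average difference was 2.64 (log2), or 6.21-fold (SE 0.13, limma adjusted p = 0.000128). The gain was 2.87 in OE-SSZ1Δire1 and 2.4 in OE-SSZ1Δire1Δscj1, and the strain difference of -0.47 (SE 0.16) did not pass the test (limma adjusted p = 0.1). SCJ1 was at 0.85 and 0.91 in OE-SSZ1Δire1, not well above background on the 3 OE-SSZ1Δire1Δscj1 arrays, and at 0.62, 0.33 and 0.62 in Δire1. It was at least 317-fold lower in OE-SSZ1Δire1Δscj1 than in Δire1. IRE1 did not reach this threshold on 8 of 8 arrays. HAC1 levels overlapped between the groups and its average difference of 0.2 (SE 0.093) did not pass the test (limma adjusted p = 0.147). The probe does not tell spliced from unspliced HAC1 mRNA.

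**Figure D1:**
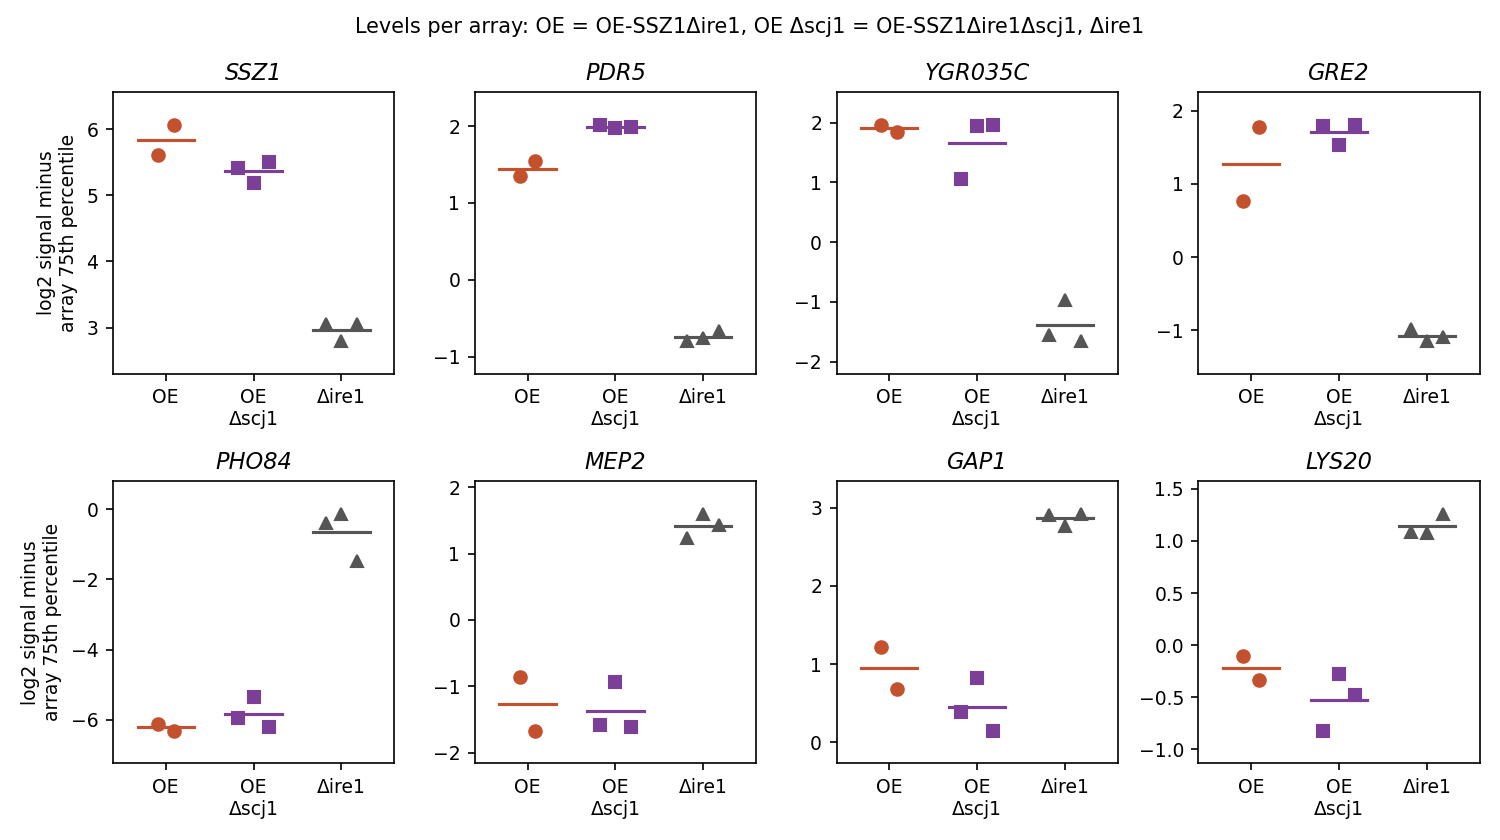
Level of 8 genes on each array (log2 processed signal relative to the 75th percentile), with points for samples and bars for group means. In all 8 panels the 5 overexpressing arrays lie on one side of the 3 Δire1 arrays, above them for SSZ1, PDR5, YGR035C and GRE2 and below them for PHO84, MEP2, GAP1 and LYS20. The rule for the largest rises and falls asked for this separation. Of all tested genes, 15.2% had the 5 arrays above and 10.9% had them below.

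The genes next to the targeted genes were looked at for effects of the constructs. Of the SSZ1 neighbours, RRP3, which encodes a helicase of rRNA processing, fell by 0.24 (SE 0.054, limma adjusted p = 0.0176), and PAN5 differed by -0.15 (adjusted p = 0.132). YHR078W, beside IRE1, fell by 0.33 (SE 0.086, limma adjusted p = 0.0271), a call kept under 12 of 21 alternatives. All 3 groups lack IRE1, so this difference does not measure its deletion. CEF1 and GAS3, beside SCJ1, did not pass the test for the average (limma adjusted p = 0.738 and 0.162). That average joins a strain with SCJ1 to one without it. Within slide rows GAS3 differed from Δire1 by -0.014 in OE-SSZ1Δire1 and by -0.65 in OE-SSZ1Δire1Δscj1. CEF1 differed by 0.0043 and 0.077 in the same order. The differences at the called neighbours were small beside that of SSZ1 itself.

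Across the genome, 1822 of 6244 tested genes passed the test for the average difference (limma, Benjamini-Hochberg adjusted p below 0.05), which is 29.2% of them. Of these, 1076 were higher (17.2%) and 746 were lower (11.9%), and 210 rose (3.36%) and 26 fell (0.416%) by at least 2-fold. Because an average can be carried by a single strain, a gene was also asked to differ in the same direction in each strain, by the larger of its 2 p-values. By this both-strain call 303 genes differed (4.85%): 197 were higher (3.16%) and 106 were lower (1.7%), and 1519 genes called in the average were not called in both strains. At least 2-fold in each strain were 108 higher genes (1.73%) and 11 lower ones (0.176%). The 11 were PHO84, SPL2, PHO5, MEP2, GAP1, DUR12, DAL3, LYS20, ZRT1, WSC4 and ATF2. On their own, OE-SSZ1Δire1 had 467 higher (7.48%) and 242 lower genes (3.88%), and OE-SSZ1Δire1Δscj1 had 1333 higher (21.3%) and 1057 lower (16.9%), with a median SE of 0.116 for OE-SSZ1Δire1 and 0.104 for OE-SSZ1Δire1Δscj1. Without Δire1 replicate 2, which stood apart, the average called 2722 genes and the both-strain call 884. Without Δire1 replicate 3, the array with high LEU2, they called 646 and 86, without Δire1 replicate 1 they called 806 and 89, and without OE-SSZ1Δire1 replicate 2 they called 728 and 22.

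The direction of a call went with the level of the gene. Of the 625 dimmest tested genes 150 were called higher and 22 lower, and of the 625 brightest 36 were called higher and 201 lower. After quantile normalization the dimmest 625 had 101 higher and 102 lower, and the brightest 625 had 59 higher and 90 lower. Higher genes made up 59.1% of the calls with the 75th percentile, 42.6% with quantile normalization and 39.9% with scaling to the median. With spike-in scaling they made up 95.9%, and the median difference of all genes was then 0.29 rather than 0.026. Small shifts of whole gene groups depend on this choice. Where a group's median average difference is given below and turned sign with it, this is stated.

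**Figure D2:**
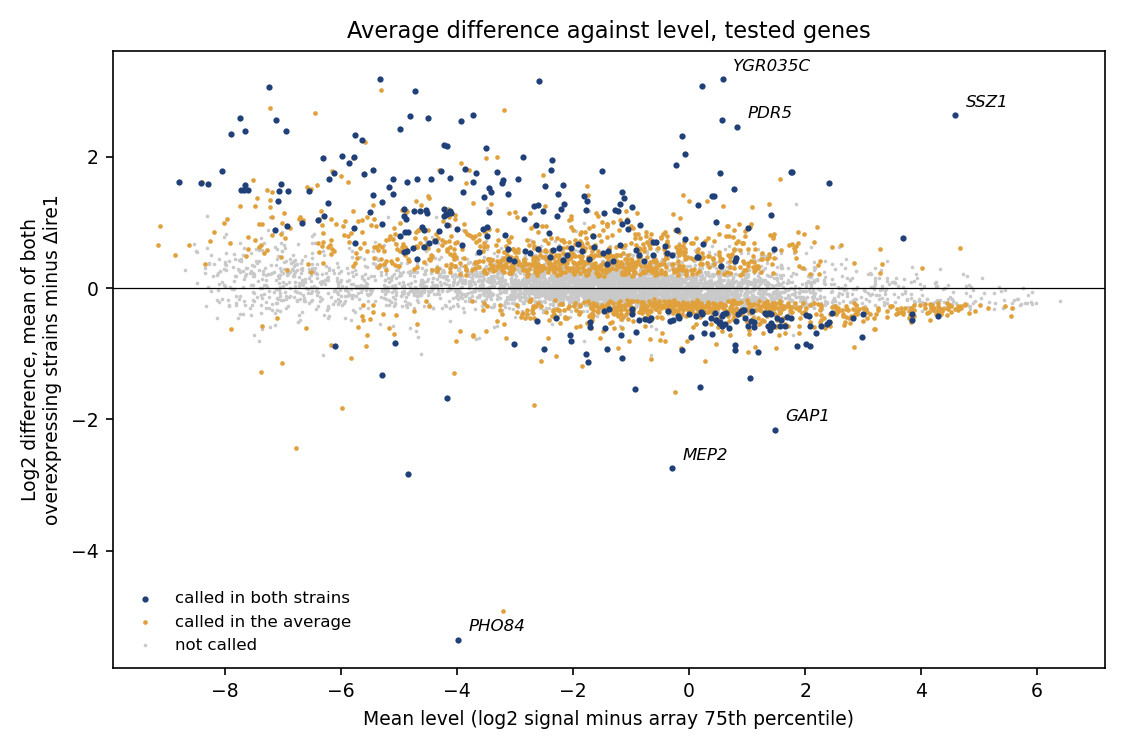
Average log2 difference of the overexpressing strains minus Δire1 (vertical axis) against the mean level over all arrays (horizontal axis), with 1 point per tested gene. The 625 brightest genes held 36 called higher and 201 called lower, and PHO84, MEP2 and GAP1 lie lowest of the labelled genes.

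Pdr1/Pdr3 targets are the genes nearest to the other known role of Ssz1. Of 22 listed, 20 were tested, and HXT11 and PDR18 were too dim. In the average, 16 of the 20 rose and 0 fell, against 17.2% of all genes called higher. The median average difference of the 20 was 1.23, against 0.026 over all genes, and it was 1.09 in OE-SSZ1Δire1 and 1.37 in OE-SSZ1Δire1Δscj1. By the both-strain call 12 of the 20 rose, against 3.16% of all genes, and this number ranged from 5 without OE-SSZ1Δire1 replicate 2 to 14 without Δire1 replicate 2.

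Of the 5 tested ABC exporter genes in this list, 4 rose in the average and 3 of them in both strains. PDR5, the main ABC exporter of drugs, stood at 1.35 and 1.54 in OE-SSZ1Δire1, at 2.02, 1.97 and 1.99 in OE-SSZ1Δire1Δscj1, and at -0.8, -0.76 and -0.66 in Δire1. This was a 5.49-fold average rise (log2 2.46, SE 0.069, limma adjusted p = 3.47e-06), with a gap between the groups that was many times the spread of the replicates. YOR1, the exporter known for oligomycin, rose by 1.75 (SE 0.11, limma adjusted p = 0.000255) and SNQ2, a further ABC exporter, by 1.27 (SE 0.08, limma adjusted p = 0.000255). PDR10 rose by 0.53 in the average (limma adjusted p = 0.0182), and PDR15, of the same family, differed by 0.081 (SE 0.16, adjusted p = 0.714). The polyamine exporter gene TPO1 rose by 0.68 in the average (SE 0.14, limma adjusted p = 0.0123), and neither it nor PDR10 passed the both-strain test.

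Some targets act on lipids. RSB1, a sphingoid base translocator, was at -3.74 and -3.9 in OE-SSZ1Δire1, at -3.23, -2.69 and -3.31 in OE-SSZ1Δire1Δscj1, and at -5.73, -5.46 and -5.69 in Δire1. Its average difference was 2.18 (SE 0.15, limma adjusted p = 0.000338). ICT1, an acyltransferase of phosphatidic acid synthesis, rose by 2.32 (SE 0.15), PDR16, a phosphatidylinositol transfer protein, by 1.12 (SE 0.084), and IPT1, which makes the most complex sphingolipid, by 0.75 (SE 0.087), all with limma adjusted p at or below 0.00195. In the sphingolipid list as a whole 7 of 24 were called higher and 0 lower in the average, against 17.2% of all genes called higher, and 2 (RSB1 and IPT1) were higher in both strains. Without OE-SSZ1Δire1 replicate 2 these counts were 4 and 0. SUR2, a sphingolipid hydroxylase gene, differed by 0.24 (SE 0.12, adjusted p = 0.156). RTA1, of a lipid-translocating family, rose by 2.72 in the average but was uneven: -4.28 and -3.17 in OE-SSZ1Δire1 and -0.87, -0.81 and -1.28 in OE-SSZ1Δire1Δscj1, against -5.32, -4.49 and -5.42 in Δire1. OE-SSZ1Δire1 replicate 1 came close to Δire1 replicate 2, whereas OE-SSZ1Δire1 replicate 2 lay clear of all 3 Δire1 arrays, and the both-strain test gave an adjusted p of 0.0995 (limma).

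The largest rise among the targets was that of YGR035C, an open reading frame of unknown function. It was at 1.97 and 1.85 in OE-SSZ1Δire1, at 1.06, 1.95 and 1.97 in OE-SSZ1Δire1Δscj1, and at -1.55, -0.97 and -1.66 in Δire1. The average difference was 3.18, a 9.04-fold rise (SE 0.25, limma adjusted p = 0.000579). HXT9, of the hexose transporter family, rose by 1.77 (SE 0.13, limma adjusted p = 0.000507), but HXT11 is a near-identical copy and the probe may read both. CIS1 rose by 2.43, YPL088W by 1.88 and LAF1 by 1.18, each in both strains. The regulator genes moved little: PDR1 rose by 0.33 (SE 0.064) and PDR3, itself a target, by 0.42 (SE 0.078) in the average, and neither passed the both-strain test. The call for PDR1 was lost with spike-in scaling (adjusted p = 0.0507) and that for PDR3 with quantile normalization (adjusted p = 0.0597). RPN4, the activator of proteasome genes, rose by 1.01 (SE 0.13, limma adjusted p = 0.00268), whereas 3 of 33 proteasome genes (9.09%) were called higher, below the 17.2% of all genes, and their median difference was 0.12. That count was 15 without Δire1 replicate 2 and 0 without Δire1 replicate 1, Δire1 replicate 3 or OE-SSZ1Δire1 replicate 2.

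**Figure D3:**
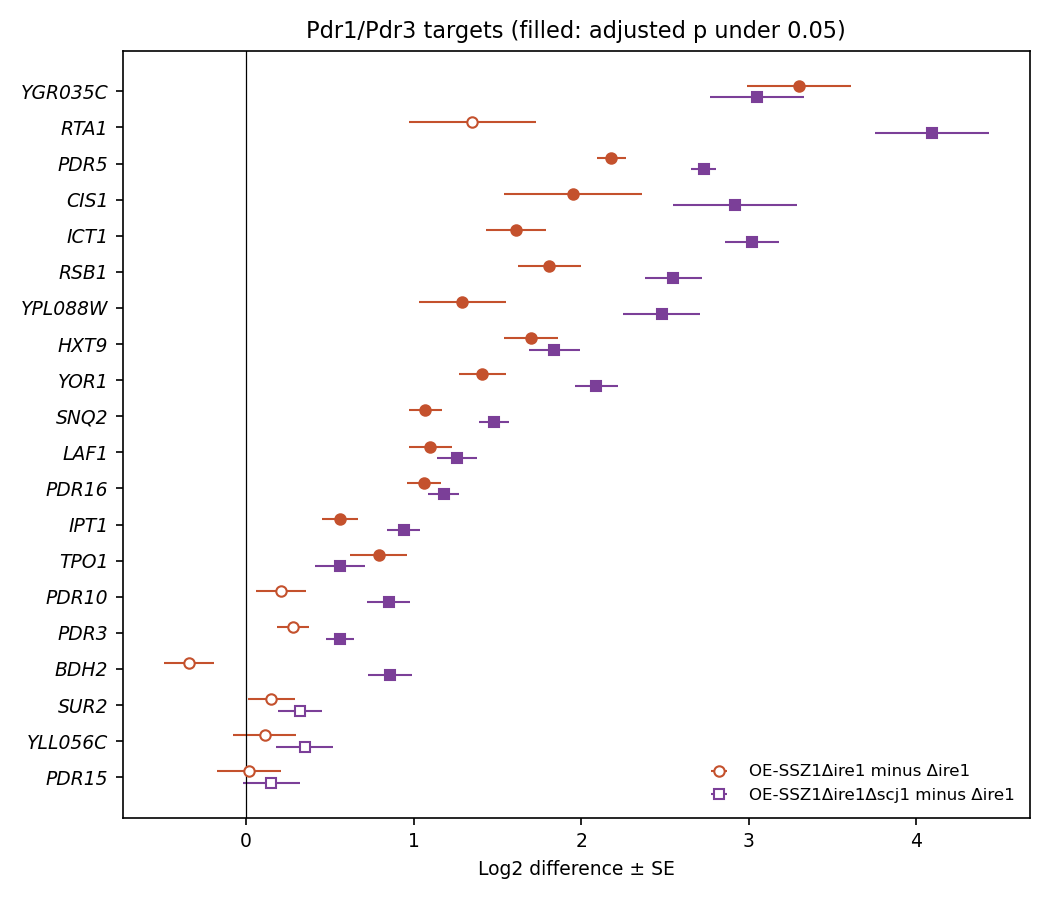
Log2 difference from Δire1 of the 20 tested Pdr1/Pdr3 targets in OE-SSZ1Δire1 (circles) and OE-SSZ1Δire1Δscj1 (squares), with bars for 1 SE and filled symbols for adjusted p below 0.05. YGR035C leads with 3.3 and 3.05, and PDR15, YLL056C and SUR2 have no filled symbol.

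A core of 18 genes was called in both strains under each of the 20 alternative settings that allow this test, which include other scalings, other filters and leaving out each array. It was assembled from that outcome, so it is described without a test of its own. In it, 16 genes were higher and 2 were lower, and 4 of the 18 (YPL113C, GAL4, AFR1 and CMI8) lie outside the rule for named genes and are named because they are in this core. SSZ1 and the Pdr1/Pdr3 targets YGR035C, PDR5, YOR1, SNQ2 and HXT9 are 6 of the 16. GRE2, a reductase gene of the stress response, was at 0.76 and 1.78 in OE-SSZ1Δire1, at 1.79, 1.53 and 1.81 in OE-SSZ1Δire1Δscj1, and at -0.98, -1.15 and -1.09 in Δire1. Its average difference was 2.56 (SE 0.21, limma adjusted p = 0.000602).

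The other core genes have varied roles. STE3, the a-factor receptor normally made by alpha cells, was at -4.34 and -3.79 in OE-SSZ1Δire1, at -3, -3.17 and -3.18 in OE-SSZ1Δire1Δscj1, and at -6.24, -5.97 and -6.33 in Δire1. It rose by 2.59 (SE 0.14, limma adjusted p = 0.00017) from a dim level. Of the 5 alpha-cell genes, 3 were called higher in the average, against 17.2% of all genes. In both strains 1 of the 5 was higher, against 3.16%. The list's median difference was -0.14 in OE-SSZ1Δire1 and 1.05 in OE-SSZ1Δire1Δscj1, and the part of these genes in this result was not tested. YKL177W, which overlaps STE3, was below background in Δire1 and at least 3.78-fold higher in the overexpressing strains. Its log2 difference was 1.01 with normexp background correction. GAL4, the activator of galactose genes, rose by 1.61 (SE 0.14), AFR1, which acts in mating projections, by 1.23 (SE 0.096), and PIR5, of the Pir family of cell wall proteins, by 1.31 (SE 0.082). YPL113C rose by 1.81, YGR050C by 1.67, COQ21 by 1.4, CMI8 by 1.19 and DAL1, an allantoinase gene, by 1.1. The 2 lower members were PHO84 and MEP2.

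**Figure D4:**
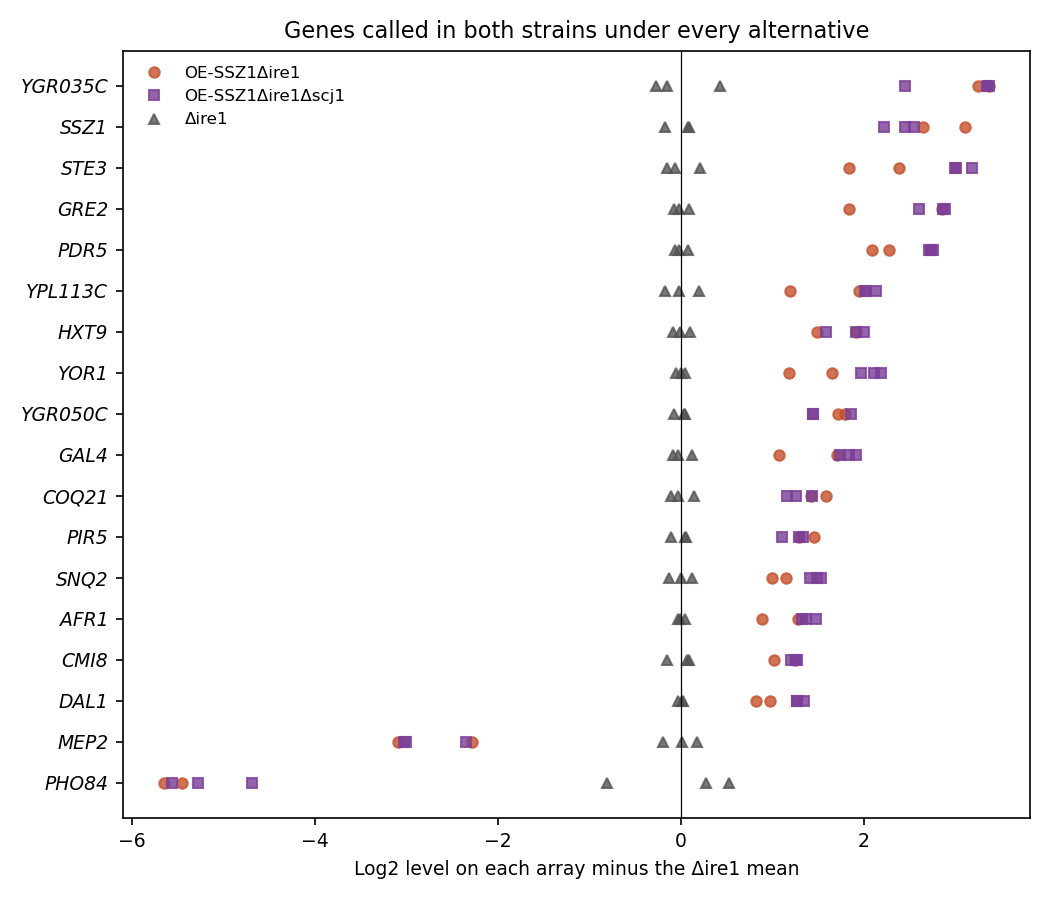
Level of the 18 core genes on each array minus the mean of the 3 Δire1 arrays, with circles for OE-SSZ1Δire1, squares for OE-SSZ1Δire1Δscj1 and triangles for Δire1. For each gene the 5 overexpressing arrays lie clear of the 3 Δire1 arrays, and PHO84 shows the widest gap with an average difference of -5.36. The core was chosen by calls in both strains, so this separation goes with the choice. Of all tested genes, 15.2% had the 5 arrays above and 10.9% had them below.

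Of the 11 genes that fell at least 2-fold in each strain, PHO84, SPL2 and PHO5 belong to the phosphate list and MEP2, GAP1, DUR12 and DAL3 to the nitrogen list. PHO84, the high-affinity phosphate transporter, stood at -6.11 and -6.31 in OE-SSZ1Δire1, at -5.94, -5.35 and -6.22 in OE-SSZ1Δire1Δscj1, and at -0.38, -0.13 and -1.47 in Δire1. That is a 41.2-fold fall (log2 -5.36, SE 0.33, limma adjusted p = 0.000255). SPL2, which acts on low-affinity phosphate uptake, fell by 2.83 (SE 0.46, limma adjusted p = 0.00578) with -3.39, -1.82 and -4.1 in Δire1, and the difference was -2.19 without Δire1 replicate 2. The secreted acid phosphatase PHO5, which has close copies, fell by 1.68 (SE 0.24, limma adjusted p = 0.00366). The polyphosphate synthesis genes VTC3 and VTC4 fell by 0.6 and 0.39, each in both strains.

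In the phosphate list of 18 genes, 8 fell and 2 rose in the average, and 5 fell by the both-strain call, against 11.9% and 1.7% of all genes. The list's median was -0.25 and turned positive with spike-in scaling. The 2 that rose were GIT1, a glycerophosphoinositol transporter (0.57, limma adjusted p = 0.0313), and PHM8, a phosphatase (0.95, limma adjusted p = 0.0358), named here, like VTC4 and DAL4, after their values were seen. Leaving out single arrays gave 5 to 9 lower calls, and 1 to 6 by the both-strain call, with 1 without either OE-SSZ1Δire1 array or Δire1 replicate 1.

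Among nitrogen catabolite-repressed genes, which cells shut off on rich nitrogen sources, 9 of 24 fell and 2 rose, against 11.9% of all genes called lower and 17.2% called higher. By the both-strain call 5 fell and 1 rose, against 1.7% and 3.16%, and the 5 became 1 without OE-SSZ1Δire1 replicate 2 and 3 to 6 without any 1 of the other arrays. MEP2, the high-affinity ammonium transporter, was at -0.86 and -1.67 in OE-SSZ1Δire1, at -1.59, -0.93 and -1.61 in OE-SSZ1Δire1Δscj1, and at 1.23, 1.6 and 1.43 in Δire1 (average difference -2.74, SE 0.23, limma adjusted p = 0.000628). GAP1, the general amino acid permease, was at 1.22 and 0.68 in OE-SSZ1Δire1, at 0.39, 0.82 and 0.15 in OE-SSZ1Δire1Δscj1, and at 2.9, 2.77 and 2.92 in Δire1 (average difference -2.16, SE 0.17, limma adjusted p = 0.000579). Both permeases were separated between the groups by more than any replicate spread, and the rule for the largest falls asked for groups without overlap. DUR12, which degrades urea, fell by 1.54 (SE 0.13) and DAL3, of allantoin breakdown, by 1.07 (SE 0.17), each in both strains. DAL1 and the allantoin permease gene DAL4 went the other way, with DAL4 up 1.42 (SE 0.2, limma adjusted p = 0.00337) in the average and at adjusted p = 0.0517 in both strains. The list was thus mixed within 1 catabolic pathway, since DAL1 and DAL4 rose while DAL3 and DUR12 fell. HMS1, a transcription factor gene of filamentous growth, fell by 2.43 (SE 0.37, limma adjusted p = 0.00478) and did not pass the both-strain test (adjusted p = 0.0517).

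The other large falls were in genes of varied function. ZRT1, the high-affinity zinc transporter, fell by 1.37 (SE 0.16), WSC4, a wall stress sensor family member, by 1.32 (SE 0.17), and ATF2, an alcohol acetyltransferase, by 1.13 (SE 0.077). All 3 fell in both strains, with limma adjusted p at or below 0.00268 in the average. TPO2, a polyamine exporter gene, fell by 1.58 (SE 0.39, limma adjusted p = 0.0236) and SNO1, of pyridoxine metabolism, by 1.82 (SE 0.49, limma adjusted p = 0.0314), without a both-strain call. SET6 fell by 1.28 (SE 0.31, limma adjusted p = 0.0221).

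In the lists of amino acid and nucleotide synthesis the falls were smaller. LYS20, the first enzyme of lysine synthesis, stood at -0.1 and -0.33 in OE-SSZ1Δire1, at -0.82, -0.28 and -0.48 in OE-SSZ1Δire1Δscj1, and at 1.09, 1.08 and 1.26 in Δire1. It fell by 1.51 (SE 0.13, limma adjusted p = 0.000638), and LYS9 of the same pathway by 0.94 (SE 0.087, limma adjusted p = 0.000833). These were the 2 genes of the Gcn4 amino acid list that fell in both strains, while 22 of its 40 fell in the average, against 11.9% of all genes. The list's median was -0.12 in OE-SSZ1Δire1 and -0.61 in OE-SSZ1Δire1Δscj1, and its lower calls ranged from 7 without Δire1 replicate 3 to 27 without Δire1 replicate 2. In the purine and pyrimidine list 17 of 24 fell and 0 rose, against 11.9% of all genes called lower, and 8 fell in both strains, against 1.7%. The list's median was -0.41 in OE-SSZ1Δire1 and -0.49 in OE-SSZ1Δire1Δscj1. The 17 became 10 without Δire1 replicate 1 or 3 and 2 with spike-in scaling. The 8 became 0 without OE-SSZ1Δire1 replicate 2, with slide row as a block and with spike-in scaling. ADE12 fell by 0.74 (SE 0.066), SHM2, a serine hydroxymethyltransferase that supplies one-carbon units, by 0.88 (SE 0.084), and ADE57 by 0.68 (SE 0.072). The calls for ADE12 and ADE57 were lost with spike-in scaling (adjusted p = 0.0875 and 0.113).

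In the ribosome assembly list 47 of 65 fell and 0 rose in the average, against 11.9% of all genes called lower, and 22 fell in both strains, against 1.7%. Leaving out single arrays gave 26 to 47 lower calls. The 22 became 0 without OE-SSZ1Δire1 replicate 2, Δire1 replicate 1 or Δire1 replicate 3 and with slide row as a block, 1 with the replicate block and 31 without Δire1 replicate 2. With spike-in scaling both counts were 0. The medians were -0.35 in OE-SSZ1Δire1 and -0.31 in OE-SSZ1Δire1Δscj1. DBP2 and BMS1 were among its lowest-p genes, with average falls of 0.57 (SE 0.064) and 0.53 (SE 0.062) that were lost with spike-in scaling (adjusted p = 0.233 and 0.296). Of 137 ribosomal protein genes 51 were lower and 0 higher in the average, against 11.9% and 17.2% of all genes. In OE-SSZ1Δire1Δscj1 94 were lower (median -0.44), against 16.9% of all genes. In OE-SSZ1Δire1 0 were lower and 2 higher (median -0.026), against 3.88% and 7.48% of all genes, and 0 were called in both strains. The 51 became 0 without OE-SSZ1Δire1 replicate 2, Δire1 replicate 1 or Δire1 replicate 3, and 66 without Δire1 replicate 2. Of these 137 genes, 72 were lower in OE-SSZ1Δire1Δscj1 than in OE-SSZ1Δire1, against 5.57% of all genes, and many have near-identical copies that the probes may not tell apart. With spike-in scaling the median of the ribosomal protein list turned positive, and 37 genes in all were called lower. Translation factor genes had 20 of 35 lower, against 11.9% of all genes, with 3 to 28 when single arrays were left out (fewest without Δire1 replicate 3 and most without Δire1 replicate 2). Histone genes had 9 of 10 lower, against the same 11.9%, and 2 without Δire1 replicate 1 or 3. With spike-in scaling 0 genes of either list were called lower.

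The cell wall and carbon source lists held more rises than falls. Of 21 cell wall integrity genes 13 rose and 0 fell, against 17.2% of all genes called higher. The list's median was 0.31 in OE-SSZ1Δire1 and 0.97 in OE-SSZ1Δire1Δscj1. In both strains only 2 rose, against 3.16% of all genes, and 0 with slide row as a block. The 2 were PRM5, with an average rise of 1.51 (SE 0.13, limma adjusted p = 0.000703), and KDX1, a relative of the Slt2 kinase, with 1.33 (SE 0.18, limma adjusted p = 0.00295). Leaving out single arrays gave 8 (without Δire1 replicate 1 or 3) to 16 higher calls, and 0 to 5 by the both-strain call. Of 22 glucose-repressed genes 9 rose and 0 fell, against 17.2% and 11.9% of all genes, and 6 rose without Δire1 replicate 3. In both strains 3 rose, against 3.16% of all genes: CAT8, the activator of gluconeogenic genes, by 1.44 (SE 0.094, limma adjusted p = 0.000255), MAL32 by 1.67 (SE 0.19, limma adjusted p = 0.00195) and MAL12 by 1.74 (SE 0.24, limma adjusted p = 0.00329). MAL12 and MAL32 encode near-identical maltases and may be 1 signal. Without OE-SSZ1Δire1 replicate 2 the both-strain call gave 0 cell wall integrity genes, 0 glucose-repressed genes and 1 hexose transporter gene. Of 15 tested hexose transporter genes 6 rose and 1 fell in the average, against 17.2% and 11.9% of all genes, and 3 were lower in OE-SSZ1Δire1Δscj1 on its own, against 16.9%. In both strains 4 rose, against 3.16%, including HXT10 by 1.54 (SE 0.13) and the glucose sensor SNF3 by 0.57 (SE 0.067). A further one was HXT14, at least 2.39-fold from below background in Δire1, though 1 of 2 OE-SSZ1Δire1 arrays measured it. Its average log2 difference was 0.73 with normexp background correction. HXT14 was tested only because it was well above background in OE-SSZ1Δire1Δscj1. With no filter on dim genes, 19 were tested, of which 6 rose and 1 fell in the average and 3 rose in both strains. The 1 that fell was HXT7, named after its value was seen, with differences of -0.062 in OE-SSZ1Δire1 and -2.17 in OE-SSZ1Δire1Δscj1 (average -1.11, limma adjusted p = 0.0422), and its near-identical copy HXT6 may share the signal.

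The other genes with the largest rises were of varied function. MPC3, a mitochondrial pyruvate carrier subunit, was at 0.69 and 1.46 in OE-SSZ1Δire1, at 1.22, 1.94 and 1.67 in OE-SSZ1Δire1Δscj1, and at -2.61, -0.51 and -2.09 in Δire1 (average difference 3.08, SE 0.46, limma adjusted p = 0.00446). The Δire1 arrays spread widely for this gene, with replicate 2 nearest to the overexpressing strains, and the difference was 3.69 without it. SRL4 rose by 3.19 (SE 0.45, limma adjusted p = 0.00349), with -8.04, -6.62 and -7.54 in Δire1. The lowest levels well above background on these 3 arrays were -8.31, -8.28 and -7.72, so SRL4 was near the floor in Δire1. Its difference was 1.88 with normexp background correction. CDA1, a chitin deacetylase of the spore wall, rose by 3.16 (SE 0.33), SPS22, also of the spore wall, by 2.62 (SE 0.31), and SPR28, a septin of sporulating cells, by 2.64 (SE 0.34), each called in both strains. SPO74, a meiotic spindle pole gene, was below background in Δire1 and at least 3.69-fold higher. Its log2 difference was 0.89 with normexp background correction. Sporulation markers were low throughout: their summed level was 0.187 to 0.213 in OE-SSZ1Δire1, 0.322 to 0.412 in OE-SSZ1Δire1Δscj1 and 0.182 to 0.228 in Δire1. In the average 1 of the 4 was higher (IME1, 0.89), 1 was lower (SPO11, -0.47) and 0 were called in both strains. The call was kept under 14 of 21 alternatives for IME1 and 8 of 21 for SPO11. In OE-SSZ1Δire1Δscj1 on its own 2 of the 4 were higher, against 21.3% of all genes, and 1 of the 4 was higher in the strain difference, against 6.28%. The part of such cells in these results was not tested.

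**Figure D5:**
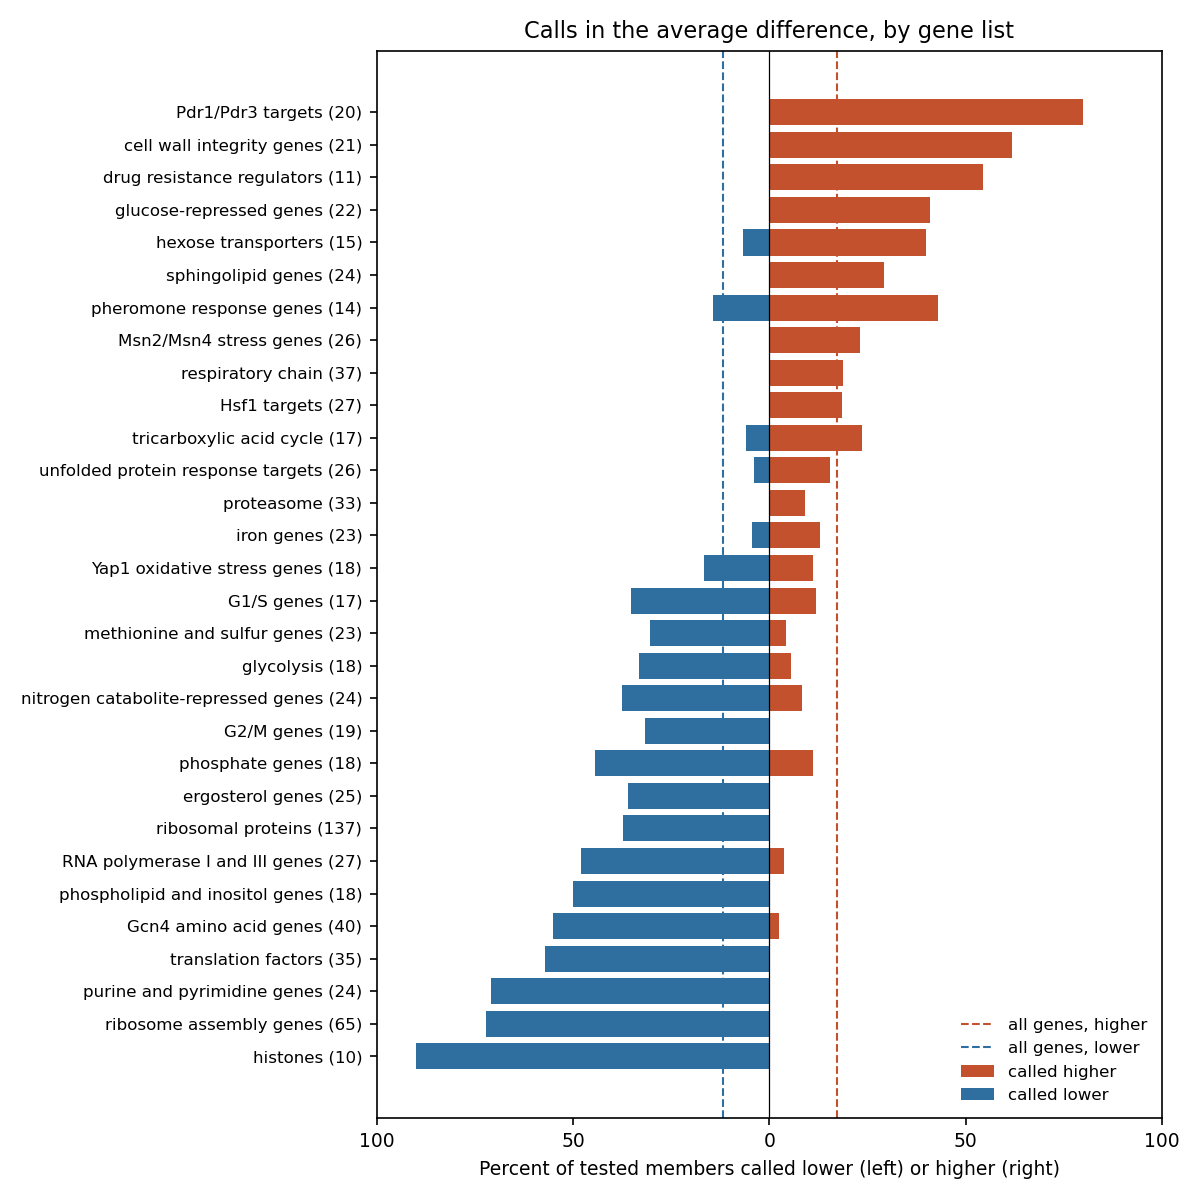
Percent of the tested members of each gene list called lower (bars to the left) or higher (bars to the right) in the average difference, with the number tested in brackets and dashed lines for all genes at 11.9% lower and 17.2% higher. Pdr1/Pdr3 targets reach 80% higher, and ribosome assembly genes 72.3% and histones 90% lower.

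In the Hsf1 and unfolded protein response lists the shares called in the average were near or below those of all genes. Of 27 Hsf1 targets, which hold the cytosolic chaperones, 5 rose and 0 fell in the average and 0 in both strains, close to the 17.2% of all genes, with 2 to 6 higher when single arrays were left out (fewest without OE-SSZ1Δire1 replicate 2, Δire1 replicate 1 or Δire1 replicate 3). Their median was 0.33 in OE-SSZ1Δire1 and -0.084 in OE-SSZ1Δire1Δscj1. In OE-SSZ1Δire1 5 were higher and 0 lower, against 7.48% and 3.88% of all genes. In OE-SSZ1Δire1Δscj1 1 was higher and 5 were lower, against 21.3% and 16.9%. In the strain difference 9 were lower in OE-SSZ1Δire1Δscj1, against 5.57% of all genes. SSA1, an Hsp70, rose by 1.25 in the average (SE 0.23, limma adjusted p = 0.00869) with an adjusted p of 0.102 in both strains, and AHA1, which stimulates Hsp90, rose by 1.09 in OE-SSZ1Δire1 (limma adjusted p = 0.00332) and differed by -0.084 in OE-SSZ1Δire1Δscj1 (adjusted p = 0.518). Of 7 ribosome-associated chaperone genes, SSZ1 among them, 3 rose and 2 fell in the average, against 17.2% and 11.9% of all genes. Their median was -0.17, and it turned positive with quantile normalization (0.0072) and with spike-in scaling (0.091). Leaving out single arrays gave 1 to 3 higher and 0 to 3 lower calls. In OE-SSZ1Δire1Δscj1 4 of the 7 were lower, against 16.9% of all genes. ZUO1, the partner of Ssz1, rose by 0.31 in the average (SE 0.073, limma adjusted p = 0.0206), with 0.51 in OE-SSZ1Δire1 (adjusted p = 0.0146) and 0.1 in OE-SSZ1Δire1Δscj1 (adjusted p = 0.358). Of 26 unfolded protein response targets 4 rose (15.4%) and 1 fell, against 17.2% and 11.9% of all genes, and leaving out single arrays gave 1 (without any 1 of the same 3 arrays) to 7 higher calls. The 1 that fell was the deleted SCJ1, and DER1, of ER-associated degradation, was the 1 that rose in both strains (0.67, SE 0.087, limma adjusted p = 0.00275).

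The strains also differed from each other. The strain difference was called for 740 genes (11.9%), 392 higher (6.28%) and 348 lower (5.57%) in OE-SSZ1Δire1Δscj1, and 341 of them were also called in the average. In 571 of the 740 OE-SSZ1Δire1Δscj1 had the larger difference from Δire1, and in 169 OE-SSZ1Δire1 had it. Among those called higher in the average, 198 were higher in OE-SSZ1Δire1Δscj1 than in OE-SSZ1Δire1 and 33 were lower. Among those called lower, 99 were lower in OE-SSZ1Δire1Δscj1 and 11 were higher. All OE-SSZ1Δire1 arrays lay in slide row 1 and all OE-SSZ1Δire1Δscj1 arrays in row 2, and only the Δire1 arrays spanned both. With row as a block, which sets each strain against the Δire1 arrays of its own row, 740 of the 740 differences had the same direction and 505 were at least as large, but the median SE over all genes was 0.202, against 0.116 without the block, and 2 genes were called. The Δire1 side of row 2 is then replicate 3 alone. Without OE-SSZ1Δire1 replicate 1, 3 genes were called. Of 45 named genes with a called strain difference, SCJ1 alone was called under each setting that tested it, 19 in its case.

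In some genes the average came from OE-SSZ1Δire1Δscj1. GSC2, an inducible glucan synthase subunit, was at -0.83 and -0.26 in OE-SSZ1Δire1, at 2.33, 2.48 and 1.92 in OE-SSZ1Δire1Δscj1, and at -0.26, 0.31 and -0.34 in Δire1. Its average difference of 0.95 (limma adjusted p = 0.0173) joined a difference of -0.45 in OE-SSZ1Δire1 to one of 2.34 in OE-SSZ1Δire1Δscj1, and within rows these were -0.57 in row 1 and 2.58 in row 2. MNC1 was at -1.16 and -1.22 in OE-SSZ1Δire1, at 2.08, 1.92 and 1.43 in OE-SSZ1Δire1Δscj1, and at -1.41, -0.24 and -1.41 in Δire1. Within rows it differed by -0.36 in OE-SSZ1Δire1 and by 3.22 in OE-SSZ1Δire1Δscj1. YPT53, a Rab GTPase gene, differed from Δire1 by -0.42 in OE-SSZ1Δire1 and by 2.49 in OE-SSZ1Δire1Δscj1. YNR064C differed by -0.36 in OE-SSZ1Δire1 and by 2.85 in OE-SSZ1Δire1Δscj1. ARO10, a decarboxylase of amino acid breakdown, ran the other way: it fell by 2.42 in OE-SSZ1Δire1 (limma adjusted p = 0.0128) and differed by -0.18 in OE-SSZ1Δire1Δscj1 (adjusted p = 0.721).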

How the data were processed

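The authors obtained intensity values per spot from Agilent Feature Extraction 10.7.1.1 (submitters' processing notes), and the processed signal is already background-subtracted, per the file headers. An array has 62976 spots, and 61657 of these belong to 6616 non-control probes. Spots marked as outliers by the scanner software (1.1% to 1.57%) were left out, the log2 processed signals of a probe were averaged, and the array's 75th percentile was subtracted. A deposited table of log2 values by the authors, whose scale, centring and direction the files do not state, equalled these values minus each probe's median over arrays (median absolute difference 0.00098 to 0.0039, column medians -0.0344 to 0.0106). It served as an alternative. The file of OE-SSZ1Δire1Δscj1 replicate 3 holds values rounded to 3 significant digits.

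The brightest probe stood for each of 6576 names, of which 39 had several. A RefSeq table of assembly R64 named 5903, and 673 kept the file's name. The files name an older genome build, so no coordinates are given. A gene was tested (6244) when more than 0.5 of its spots were well above background on all arrays of 1 or more groups. The fit used limma 3.58.1 (R 4.3.3) on the 8 arrays with a mean for each of 3 groups, moderated by eBayes, two-sided, and p-values were adjusted by Benjamini-Hochberg over all tested genes at 0.05. The number of arrays limits the precision, and the median SE of the average difference was 0.0933. A fold given as "at least" holds for the main processing only. It sets the bright group's mean against the lowest signal well above background in the dim group, or the dim probe's own signal where higher. The fit was tested on simulated data.

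The members and gene lists were chosen with earlier results of these data known. Named genes were SSZ1, IRE1, SCJ1, HAC1 and their neighbours, Pdr1/Pdr3 targets, marker genes, the 15 largest rises and falls without overlap, the 8 largest strain differences (1 is not reported here), the 6 lowest both-strain p-values in each direction and up to 3 called members per list. Alternatives were 21: other scalings, background correction, filters, fits and leaving out each array. No promoter or protein sequence was used here.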

Additional observations from a re-analysis of the deposited data

Results flagged for a closer look

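For 21 of the genes named above the difference from Δire1 was not the same in the overexpressing strains, by the limma test of OE-SSZ1Δire1Δscj1 minus OE-SSZ1Δire1 (adjusted p below 0.05, log2 values). Genes named after their values were seen, HXT7 among them, were not in this count. Also outside it was the Pdr1/Pdr3 target BDH2, not named above, at 1.2 (limma adjusted p = 0.00972). Within slide rows BDH2 differed from Δire1 by -0.33 in OE-SSZ1Δire1 and by 0.83 in OE-SSZ1Δire1Δscj1. SCJ1 alone was called under each setting that tested it, at -10.55, and it is the deleted gene, below background in OE-SSZ1Δire1Δscj1. Among the Pdr1/Pdr3 targets in the count OE-SSZ1Δire1Δscj1 was higher for RTA1 (2.74), ICT1 (1.42), YPL088W (1.18), RSB1 (0.75), YOR1 (0.68), PDR10 (0.65), PDR5 (0.55) and SNQ2 (0.41). Of the other genes with an average rise, it was higher for YNR064C (3.21), MNC1 (3), YPT53 (2.91), GSC2 (2.78), YKL177W (1.24), STE3 (0.95), PRM5 (0.65), CAT8 (0.55) and DAL1 (0.4). It was also higher for ARO10 (2.24), which was lower than Δire1 in the average. It was lower for AHA1 (-1.18) and ZUO1 (-0.41), both chaperone system genes. Every OE-SSZ1Δire1 array lay in slide row 1 and every OE-SSZ1Δire1Δscj1 array in row 2, and only Δire1 spanned both. Within rows, against the Δire1 arrays of the same row, the differences were -0.36 in OE-SSZ1Δire1 and 3.22 in OE-SSZ1Δire1Δscj1 for MNC1, -0.63 and 3.39 for YNR064C in the same order, and 1.09 and -0.089 for AHA1. With row as a block the strain difference was 3.15 (SE 0.43) for GSC2 and 3.26 (SE 0.62) for RTA1, without a call (limma adjusted p = 0.131 and 0.186).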

How the results depend on the processing

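Of 150 named genes called in the average, 70 kept the call under every alternative run, and 18 genes were called in both strains under the 20 settings with that test. The numbers of calls depended on the processing, and the cause was not tested. The average (1822) called 904 genes with spike-in scaling, 3808 with array weights, whose estimation stopped before converging, and 1049 with 2 groups of equal weight per array. Higher genes (1076) became 2057 with array weights and 652 with 2 groups, and lower genes (746) became 1175 with median scaling, 37 with spike-in scaling, 1751 with array weights and 397 with 2 groups. The both-strain call (303) gave 134 with spike-in scaling, 1636 with array weights and 61 with slide row as a block, of which higher were 124, 974 and 54 and lower were 10, 662 and 7. The strain difference (740) gave 161, 1905 and 2 under the same settings.

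Same-numbered samples did not deviate together throughout (correlations of -0.0382 to 0.206). With 2 or 3 samples in a group, these correlations cannot settle whether the numbers pair samples. With a replicate block the average called 1191 genes, 434 of them lower, and the both-strain call 121, of which 106 were higher and 15 lower.

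Leaving out each array gave 646 to 2722 genes in the average, 440 to 1475 higher and 206 to 1247 lower, and moved it by over 1.5 times without OE-SSZ1Δire1 replicate 2 (728), Δire1 replicates 1 (806) and 3 (646) and OE-SSZ1Δire1Δscj1 replicate 1 (1190). The both-strain call ranged from 22 (without OE-SSZ1Δire1 replicate 2) to 884 (without Δire1 replicate 2), with 19 to 579 higher and 3 to 305 lower, and every array other than OE-SSZ1Δire1Δscj1 replicate 2 moved it by over 1.5 times. The strain difference ranged from 3 (without OE-SSZ1Δire1 replicate 1) to 1526 (without Δire1 replicate 2), and was also moved so without OE-SSZ1Δire1 replicate 2 (204), Δire1 replicate 3 (369) and OE-SSZ1Δire1Δscj1 replicates 1 (127) and 2 (273).

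The average difference turned positive with spike-in scaling for STE4 (0.047, adjusted p = 0.874) and RRP3 (0.021, adjusted p = 0.946). Calls of 80 named genes were lost under at least 1 setting. Probes below background give only a bound.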
